A study of Mus musculus with 6 samples.

Results

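The pentose phosphate pathway and the other cytosolic sources of NADPH were followed through 9 genes of a mouse macrophage line, chosen by enzyme role: G6pdx, Pgls, Pgd, Rpia, Rpe, Tkt, Taldo1, Me1 and Idh1. All 9 were found by symbol among the 54532 gene entries of the deposited table, and all 9 were among the 11708 genes tested. The cells were RAW264.7, an adherent mouse line of macrophages that arose in a tumour after viral transformation. In the C/D group the cells were kept for 3 d with GelMA/PEDOT:PSS+PLLA/PDA, a gelatin methacryloyl hydrogel that carries a conducting polymer blend, in a dynamic setting made by ultrasound of 48 kHz for 5 min. In the Gel/S group, the control, they were kept for 3 d with GelMA alone and static. Each group had 3 libraries, C/D with total counts of 12818831 to 15802627 and Gel/S with 15579679 to 16525699. Material and ultrasound changed together, so their effects cannot be told apart. The deposited columns read as C/D carry the letters US, taken as ultrasound, and every direction rests on that reading.

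The pathway takes glucose 6-phosphate out of glycolysis. Its oxidative arm, the enzymes of G6pdx, Pgls and Pgd in that order, makes ribulose 5-phosphate and reduces NADP+ to NADPH at the first and the last step. Its non-oxidative arm first turns ribulose 5-phosphate into ribose 5-phosphate (Rpia) and xylulose 5-phosphate (Rpe), and then, through transketolase (Tkt) and transaldolase (Taldo1), exchanges carbon with glycolysis in both directions. Me1 and Idh1 encode cytosolic malic enzyme and cytosolic isocitrate dehydrogenase, which make NADPH outside the pathway. Macrophages spend NADPH on fatty acid and sterol synthesis, on keeping glutathione and thioredoxin reduced, and on the oxidant burst.

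In C/D macrophages the mRNAs of both enzymes that act on ribulose 5-phosphate and of the second NADPH-making dehydrogenase were lower than in Gel/S, and that of transaldolase was higher. Rpia had the log2 fold change farthest from 0 of the 9, at 5.42 ± 0.647 FPKM in C/D and 8.10 ± 0.314 FPKM in Gel/S (SD, n = 3 each; FPKM is the authors' level, fragments per length of the gene and size of the library). Rpe and Pgd fell as well, and Taldo1 rose to 222 ± 4.77 FPKM in C/D, against 188 ± 16.2 FPKM in Gel/S. Neither arm had 1 direction: the oxidative arm held Pgls, with a fold change above 0 that did not pass the test, and the non-oxidative arm held Taldo1, while the other genes of both arms had fold changes below 0. By the edgeR quasi-likelihood test with Benjamini-Hochberg adjustment over all tested genes, 3 of 9 enzymes fell, where 13.9% of all tested genes did, and 1 of 9 rose, where 13.1% of all tested genes did, which is near that background. With any of C/D 1, C/D 2, C/D 3 or Gel/S 3 left out, or with a replicate block, Rpia alone was called, so the counts were then 1 of 9 and 0 of 9. Calls were fewer over all 11708 tested genes too. In these fits 876 to 1302 genes fell and 887 to 1242 rose, against 1631 and 1532 with all libraries and no block. The log2 fold change (C/D over Gel/S) was below 0 for 7 of the 9, with a median of −0.23, against 0.01 for all tested genes.

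For 7 of the 9 enzymes the FPKM ranges of C/D and Gel/S were apart. C/D was lower for 6, where 27.1% of all tested genes showed this, and higher for 1, where 19.1% did. Of the 5 that did not pass the test, 3 (G6pdx, Tkt and Idh1) were among them. For Tkt the ranges were apart by FPKM only, and overlapped for counts scaled with the TMM factors of the edgeR fit. In bulk RNA, fewer cells of a kind and less RNA per cell cannot be told apart. The labels do not say whether replicates are separate cultures, so the p-values measure the spread between these libraries, which may be technical. Mitochondrial transcripts took 9.84 ± 0.606% of the counts in C/D and 7.34 ± 1.72% in Gel/S, and with mitochondrial genes left out of the counts all 4 called enzymes were called again. Gel/S 1 held the lowest share, 5.59%, against 9.02% in Gel/S 2 and 7.41% in Gel/S 3. It also stood apart over all tested genes, at −34.6 on the first principal component, against −11.3 for Gel/S 2 and −17.7 for Gel/S 3. The cells carried all 7 macrophage markers checked (Ptprc, Cd68, Adgre1, Itgam, Csf1r, Lyz2, Spi1), summing to 9762 to 9873 FPKM in C/D and 11786 to 12641 FPKM in Gel/S. Markers of fibroblasts, endothelium, T cells, B cells and epithelium each summed to below 0.553 FPKM in every library, with Col1a2, Col3a1, Lum, Kdr, Cd8a, Ms4a1, Epcam and Krt18 at 0 throughout. The part of the lower macrophage marker sum in these results was not tested.

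**Figure D1:**
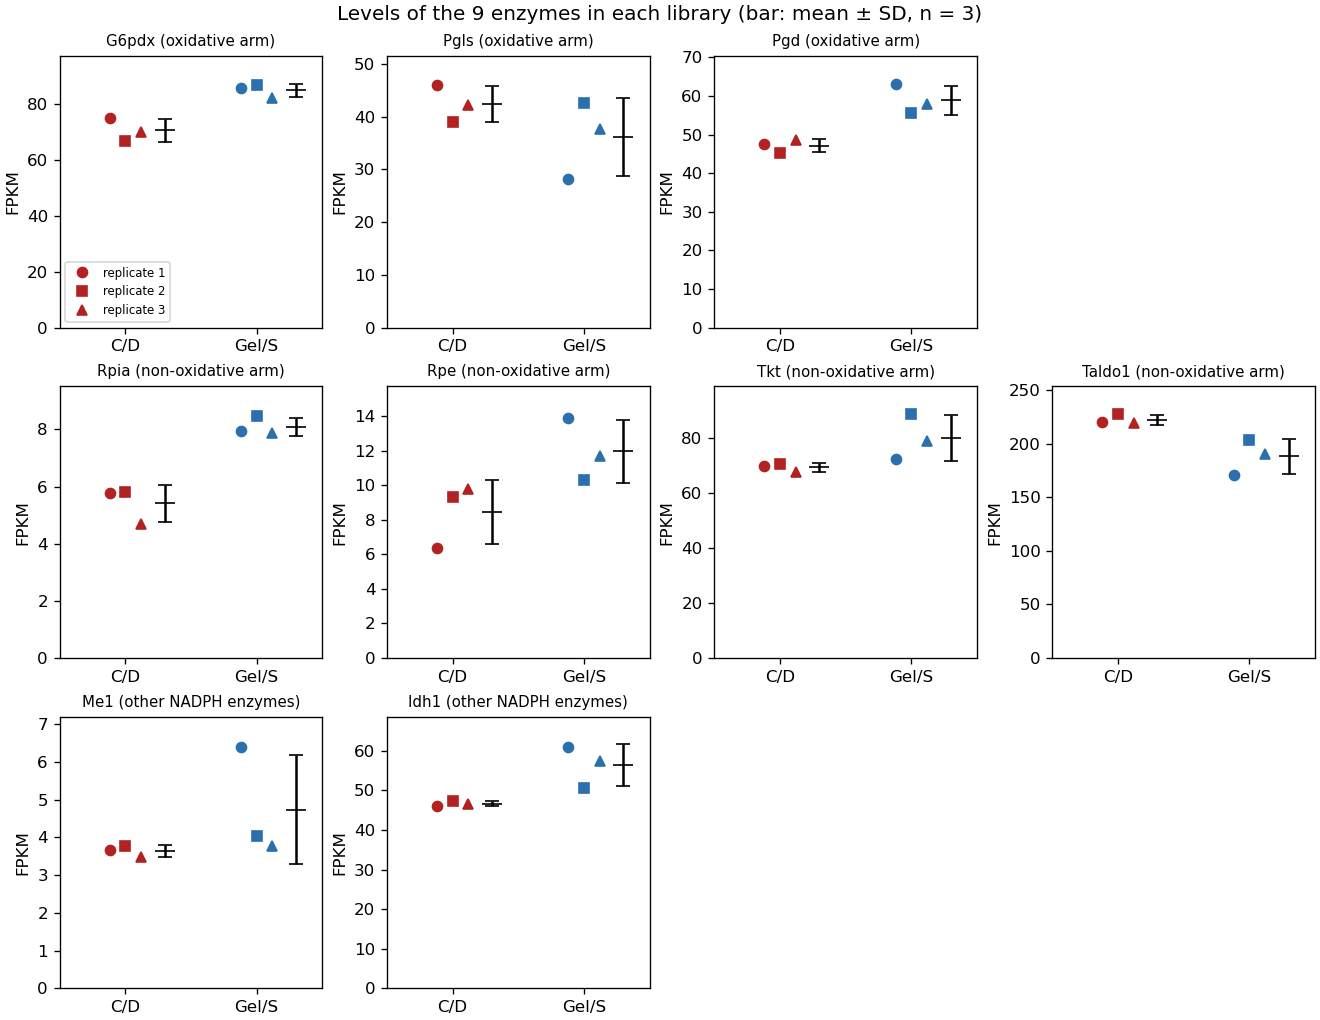
FPKM of each enzyme in each library, C/D left and Gel/S right, with the vertical axis from 0 and the bar giving mean ± SD over 3 libraries. Rpia, Rpe, Pgd, G6pdx, Tkt and Idh1 lie lower in every C/D library than in any Gel/S library, and Taldo1 lies higher, while Pgls and Me1 overlap.

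The start regions of 4 of these genes are shown because they hold the 2 extremes of the response (Rpia and Taldo1) and the only members with a match to the antioxidant response element (G6pdx and Me1). Each runs from 250 bases before to 50 bases after the transcription start, 5′ to 3′ on the gene's strand, from RefSeq on GRCm38.p6. Capitals mark matches on either strand to the antioxidant response element core TGACNNNGC or to CCAAT, and the sterol response element TCACNCCAC was searched for too.

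Rpia, chr6:70792126-70792425, minus strand: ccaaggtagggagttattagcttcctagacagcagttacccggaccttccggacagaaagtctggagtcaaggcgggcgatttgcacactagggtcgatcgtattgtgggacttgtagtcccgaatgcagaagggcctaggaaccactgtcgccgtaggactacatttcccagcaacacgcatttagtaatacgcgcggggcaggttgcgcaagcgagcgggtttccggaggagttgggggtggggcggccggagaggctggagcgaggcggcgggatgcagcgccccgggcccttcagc

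Taldo1, chr7:141391910-141392209, plus strand: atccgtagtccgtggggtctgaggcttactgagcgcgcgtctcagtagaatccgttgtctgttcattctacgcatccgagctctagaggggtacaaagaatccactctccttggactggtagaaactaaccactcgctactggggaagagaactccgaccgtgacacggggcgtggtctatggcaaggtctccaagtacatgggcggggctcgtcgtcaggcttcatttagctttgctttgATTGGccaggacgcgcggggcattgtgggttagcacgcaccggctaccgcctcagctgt

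G6pdx, chrX:74428831-74429130, minus strand: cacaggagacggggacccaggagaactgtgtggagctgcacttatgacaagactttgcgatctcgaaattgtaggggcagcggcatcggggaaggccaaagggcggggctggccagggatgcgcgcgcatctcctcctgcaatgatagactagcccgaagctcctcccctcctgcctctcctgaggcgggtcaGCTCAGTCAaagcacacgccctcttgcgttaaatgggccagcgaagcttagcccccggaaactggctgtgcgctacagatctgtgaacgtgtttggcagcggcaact

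Me1, chr9:86695865-86696164, minus strand: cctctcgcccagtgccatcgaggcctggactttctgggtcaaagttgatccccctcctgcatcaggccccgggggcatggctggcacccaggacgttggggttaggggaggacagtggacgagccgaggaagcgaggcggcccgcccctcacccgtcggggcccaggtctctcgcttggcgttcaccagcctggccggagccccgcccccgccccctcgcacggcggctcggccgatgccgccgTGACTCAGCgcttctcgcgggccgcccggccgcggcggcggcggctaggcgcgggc

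The antioxidant response element is bound by NRF2 with small MAF proteins, and in mouse and human cells several genes of this pathway and Me1 are known NRF2 targets. Its core matched in 2 of the 9 windows, while 12.4% of 32544 distinct mouse start regions of this length held it. A gene with several starts can count more than once among these, while each of the 9 has 1 window, the nearest to its deposited start. In Me1 the core began 6 bases before the start on the gene's own strand, and in G6pdx 57 bases before the start on the other strand. The RefSeq start of G6pdx lies 314 bases inside the gene's span in the deposited table, so that whole window lies within the deposited span. The sterol element, bound by SREBP factors, matched in 0 of 9 windows and in 1.24% of all. CCAAT, bound by NF-Y, matched in 4 of 9 (Pgd, Rpe, Taldo1 and Idh1) and in 37.4% of all. The Rpia window held none of these letters, and Taldo1 held CCAAT on the other strand, 9 bases before the start. Neither gene with the antioxidant element passed the test.

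The oxidative arm was described first by G6pdx, glucose-6-phosphate dehydrogenase, which commits glucose 6-phosphate to the pathway (ENSMUSG00000031400, chromosome X, 74409483 to 74429194, GRCm38, minus strand). Its level was 74.9, 66.7 and 70.0 FPKM in C/D 1 to 3, against 85.8, 86.7 and 82.2 FPKM in Gel/S 1 to 3. Every C/D library was below every Gel/S library, by a mean of 16.9% of the Gel/S level. The log2 fold change was −0.22 (SE 0.0861) and did not pass (edgeR adjusted p = 0.0711). The authors' deposited table gives −0.27 for the same ratio, with an adjusted p of 0.0171, which is a call. The limma fits on log2(FPKM + 1), log2(FPKM + 0.1) and log2(TPM + 1) called it lower as well (adjusted p = 0.0428, 0.0439 and 0.0320), while every other alternative did not. Ikbkg, at a mean of 7.44 FPKM, lies on the other strand across the whole gene, and no source used here gives the strandedness of the counting.

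Pgls, 6-phosphogluconolactonase, opens the lactone that G6pdx makes (ENSMUSG00000031807, chromosome 8, 71592176 to 71601092, plus strand). It had 45.9, 39.0 and 42.3 FPKM in C/D 1 to 3, and 28.1, 42.7 and 37.7 FPKM in Gel/S 1 to 3. Gel/S 1 stood low, and Gel/S 2 reached into the C/D range. The log2 fold change of 0.27 (SE 0.138) did not pass (edgeR adjusted p = 0.161). It was 0.11 without Gel/S 1 (adjusted p = 0.376) and 0.41 without Gel/S 2 (adjusted p = 0.0191). The gene shares 3445 bases of its span with Fam129c on the same strand (mean 2.56 FPKM), so reads of either could be counted to the other.

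Pgd, phosphogluconate dehydrogenase, makes the second NADPH and releases carbon dioxide (ENSMUSG00000028961, chromosome 4, 149149991 to 149166771, minus strand). It had 47.5, 45.3 and 48.5 FPKM in C/D 1 to 3, against 63.1, 55.6 and 57.9 FPKM in Gel/S 1 to 3. The groups did not overlap, and Pgd fell, its log2 fold change being −0.28 with an SE of 0.0873 (edgeR adjusted p = 0.0351). Its call was lost without C/D 1, C/D 2, C/D 3 or Gel/S 3, with a highest adjusted p of 0.149. Summed over G6pdx and Pgd, the NADPH-making pair, levels were 122, 112 and 119 FPKM in C/D 1 to 3, and 149, 142 and 140 FPKM in Gel/S 1 to 3. The ratio of Pgd to G6pdx was 0.669 ± 0.0308 in C/D and 0.694 ± 0.0477 in Gel/S, a difference within the spread.

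In the non-oxidative arm, Rpia, ribose-5-phosphate isomerase, makes the ribose used for nucleotides (ENSMUSG00000053604, chromosome 6, 70765720 to 70792232, minus strand). It had 402, 502 and 377 counts in C/D 1 to 3, against 681, 731 and 656 counts in Gel/S 1 to 3, or 5.77, 5.83 and 4.68 FPKM against 7.95, 8.46 and 7.88 FPKM. The highest C/D library stayed well below the lowest Gel/S library. Rpia fell, its log2 fold change being −0.54 with an SE of 0.107 (edgeR adjusted p = 0.00448). It was the only member called in all 14 alternative fits, with log2 fold changes of −0.63 to −0.44 and a highest adjusted p of 0.0250, without C/D 3.

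Rpe, ribulose-5-phosphate 3-epimerase, competes with Rpia for the same substrate (ENSMUSG00000026005, chromosome 1, 66700831 to 66719805, plus strand). It had 257, 466 and 457 counts in C/D 1 to 3, against 692, 517 and 565 counts in Gel/S 1 to 3, or 6.35, 9.31 and 9.76 FPKM against 13.9, 10.3 and 11.7 FPKM. C/D 1 stood low and Gel/S 1 high, and C/D 3 came close to Gel/S 2 without meeting it. Rpe fell with a log2 fold change of −0.45 (SE 0.154), just past the threshold (edgeR adjusted p = 0.0489). The value was −0.29 without C/D 1 (adjusted p = 0.159), and the call was also lost without C/D 2, C/D 3, Gel/S 1 or Gel/S 3. Kansl1l lies on the other strand over 558 bases of the gene (mean 4.23 FPKM).

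Tkt, transketolase, moves carbon pairs between sugar phosphates with thiamine diphosphate as cofactor (ENSMUSG00000021957, chromosome 14, 30548359 to 30574720, plus strand). It had 69.6, 70.4 and 67.5 FPKM in C/D 1 to 3, against 72.1, 88.6 and 78.9 FPKM in Gel/S 1 to 3. By FPKM the C/D libraries were tightly grouped below all Gel/S libraries, of which Gel/S 1 came nearest. This rests on the library scaling: for counts scaled with the TMM factors of the edgeR fit, Gel/S 1 lay below C/D 1 and C/D 2. The log2 fold change of −0.17 (SE 0.102) did not pass (edgeR adjusted p = 0.239), and was −0.24 without Gel/S 1 (adjusted p = 0.0419) and −0.08 without Gel/S 2 (adjusted p = 0.571).

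Taldo1, transaldolase, works beside transketolase on sedoheptulose 7-phosphate (ENSMUSG00000025503, chromosome 7, 141392199 to 141402968, plus strand). It had 220, 227 and 219 FPKM in C/D 1 to 3, against 171, 203 and 190 FPKM in Gel/S 1 to 3. Every C/D library was above every Gel/S library, and C/D varied less. Taldo1 rose with a log2 fold change of 0.28 (SE 0.0967), at the edge of the threshold (edgeR adjusted p = 0.0495). The call was kept by 1 of 6 fits that left out a library, and without C/D 2 its adjusted p was 0.158. The direction held in all 14 alternatives, at 0.15 to 0.35.

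Because transketolase and transaldolase are read from the same library, their ratio is free of library scaling. This ratio was picked after its values were seen. Taldo1 over Tkt was 3.16, 3.23 and 3.24 in C/D 1 to 3, against 2.37, 2.29 and 2.41 in Gel/S 1 to 3. Means were 3.21 ± 0.0457 in C/D and 2.36 ± 0.0589 in Gel/S, so the difference of 0.852 was larger than the SD of either group. Rpe over Rpia, in contrast, was 1.60 ± 0.493 in C/D and 1.48 ± 0.266 in Gel/S and did not separate the groups.

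Whether the oxidative or the non-oxidative arm was lower depended on how an arm was summarised. As the mean log2(FPKM + 1) of its genes, each counted alike, the oxidative arm was 5.73 ± 0.0772 in C/D and 5.84 ± 0.0701 in Gel/S, and the non-oxidative arm 4.96 ± 0.0709 in C/D and 5.19 ± 0.0295 in Gel/S. The oxidative minus the non-oxidative mean was 0.908, 0.613 and 0.786 in C/D 1 to 3 and 0.599, 0.684 and 0.666 in Gel/S 1 to 3. These ranges overlap, and the group difference of 0.12 was smaller than the SD of 0.148 in C/D. As a share of the summed FPKM of the 7 pathway genes, the oxidative arm held 35.8%, 32.6% and 34.9% in C/D 1 to 3, against 40.1%, 37.3% and 38.1% in Gel/S 1 to 3, a difference of −4.09 percentage points without overlap. The sum is ruled by Taldo1, which held 47.7 ± 1.15% of it in C/D and 40.1 ± 1.28% in Gel/S. Without Taldo1 the non-oxidative genes summed to 83.1 ± 2.16 FPKM in C/D and 99.9 ± 6.80 FPKM in Gel/S. No p is given for these scores, since the members were chosen with results known.

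**Figure D2:**
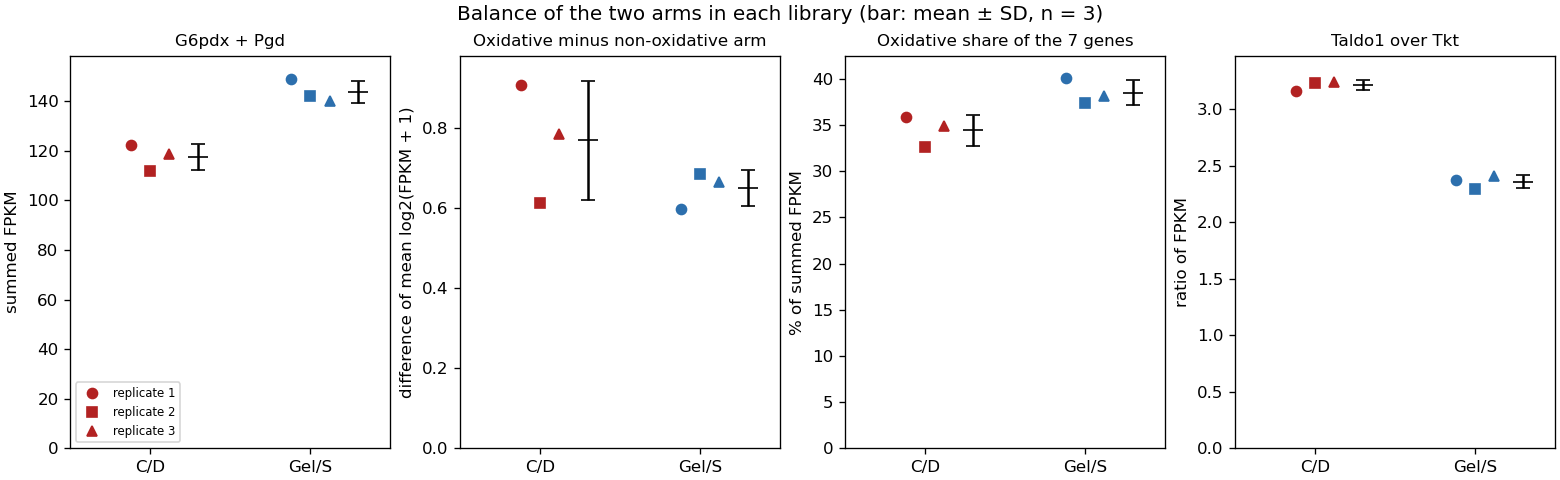
Summed FPKM of G6pdx and Pgd, the difference between the arms in mean log2(FPKM + 1), the oxidative share of the summed FPKM of 7 pathway genes and the ratio of Taldo1 to Tkt, per library with C/D left and Gel/S right; bars are mean ± SD over 3 libraries and axes start at 0. The ratio of Taldo1 to Tkt separates the groups most clearly, at 3.16 to 3.24 in C/D and 2.29 to 2.41 in Gel/S, while the difference between the arms overlaps.

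Outside the pathway, Me1 was the least abundant member (ENSMUSG00000032418, chromosome 9, 86581371 to 86695953, minus strand). It had 184, 234 and 201 counts in C/D 1 to 3 and 393, 250 and 226 counts in Gel/S 1 to 3, or 3.68, 3.78 and 3.47 FPKM and 6.39, 4.03 and 3.78 FPKM. C/D 2 and Gel/S 3 met, and Gel/S 1 stood alone at the top. The log2 fold change of −0.33 (SE 0.177) did not pass (edgeR adjusted p = 0.178), and it was −0.06 without Gel/S 1 (adjusted p = 0.746), so that 1 library decides the value.

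Idh1 makes NADPH and 2-oxoglutarate from isocitrate in the cytosol and peroxisomes (ENSMUSG00000025950, chromosome 1, 65158616 to 65186500, minus strand). It had 46.1, 47.3 and 46.6 FPKM in C/D 1 to 3, against 60.9, 50.6 and 57.5 FPKM in Gel/S 1 to 3. No C/D library reached the Gel/S range, and C/D varied by only 0.602 FPKM (SD). The log2 fold change of −0.23 (SE 0.0872) did not pass (edgeR adjusted p = 0.0689), though without Gel/S 2 it did (adjusted p = 0.0177). The authors' deposited table lists Idh1 at −0.27 with an adjusted p of 0.0320.

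In all, the authors' deposited table calls 5 members lower in C/D (G6pdx, Pgd, Rpia, Rpe and Idh1), where it calls 8.94% of its 21850 entries with a p-value, and 1 higher (Taldo1), where it calls 5.95%. Its 6 calls include the 4 made by edgeR here. In the edgeR fit the unadjusted p was 0.0229 for G6pdx and 0.0220 for Idh1, and neither passed after adjustment.

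**Figure D3:**
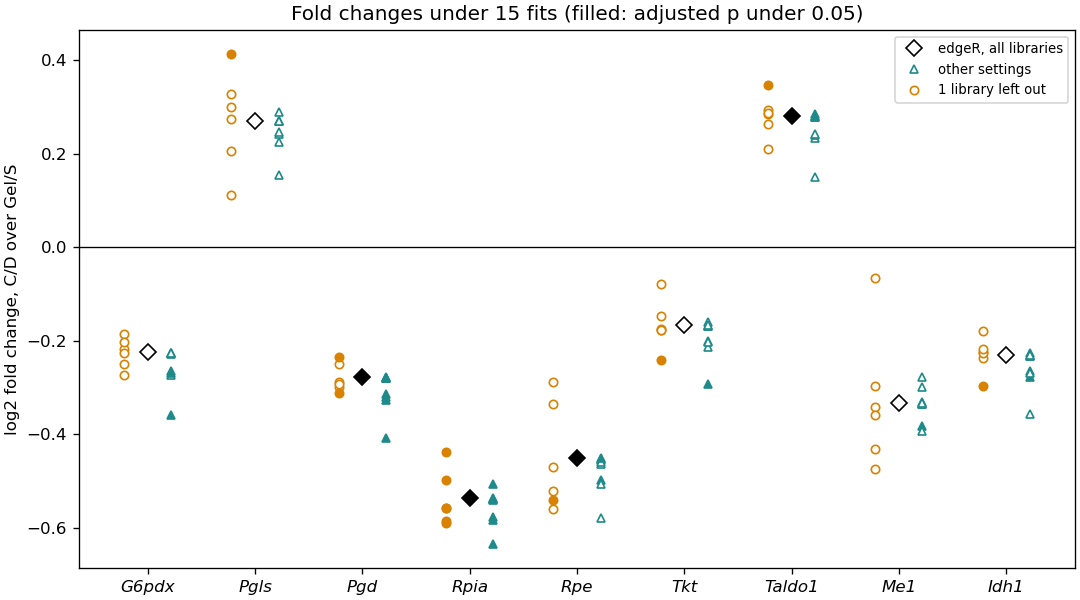
Log2 fold change of each enzyme (C/D over Gel/S) in 15 fits: the edgeR fit on all libraries (diamonds), 6 fits with 1 library left out (circles, left) and 8 other settings (triangles, right), filled where the adjusted p is under 0.05. All points of an enzyme lie on 1 side of 0, and Rpia is the only enzyme with every point filled.

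Ranked by FPKM, the order was the same in both groups: Taldo1, G6pdx, Tkt, Pgd, Idh1, Pgls, Rpe, Rpia and Me1. G6pdx and Tkt did not differ beyond their spread within C/D (70.5 ± 4.11 and 69.2 ± 1.53 FPKM) or within Gel/S (84.9 ± 2.38 and 79.9 ± 8.28 FPKM), and neither did Pgd and Idh1. The length in these FPKM is the union of all annotated exons of a gene in GENCODE M21 and equals it exactly for all 9. It exceeds the principal transcript by 4.22 times for Pgls (3770 and 893 bases) and by 1.16 times for G6pdx (3080 and 2652 bases). Per length of the principal transcript the level of Taldo1 was still first, at 392 ± 8.43 in C/D and 332 ± 28.7 in Gel/S. Tkt (158 ± 3.50 in C/D and 182 ± 18.9 in Gel/S), Pgd (137 ± 4.82 and 171 ± 11.1) and Pgls (179 ± 14.5 and 153 ± 31.2) then stood above G6pdx (81.9 ± 4.77 and 98.6 ± 2.77). On that scale the oxidative share of the summed level was 40.9 ± 1.84% in C/D and 43.4 ± 0.865% in Gel/S. Fold changes between groups do not depend on the length.

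Around the pathway, 5 lists of enzymes were set by role. Of 8 tested genes of glucose 6-phosphate supply and use, 5 fell (13.9% of all genes did), 0 rose (13.1%) and 3 did not pass (median log2 fold change −0.41). Slc2a1, the glucose transporter, fell by 0.98 on the log2 scale, and Pfkl, a phosphofructokinase, fell by 0.75. The hexokinases differed: Hk2 (log2 fold change −1.08) and Hk1 (−0.46) fell, while Hk3, the most abundant of them by FPKM, had 38.0 to 44.6 FPKM in C/D and 38.1 to 40.9 FPKM in Gel/S and did not pass (log2 fold change 0.06, edgeR adjusted p = 0.643). Gpi1, which competes with G6pdx for glucose 6-phosphate, had 201 ± 9.50 FPKM in C/D and 219 ± 7.98 FPKM in Gel/S and did not pass (log2 fold change −0.09, edgeR adjusted p = 0.533). Slc2a1, Hk2, Hk1 and Pfkl were named for the smallest adjusted p of this list. Each had a log2 fold change farther from 0 than any enzyme of the oxidative arm. Hk3 and Gpi1 of the same list were nearer to 0 than any enzyme of that arm, and no such difference was tested.

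Among 8 tested side enzymes of pentose metabolism, 1 fell and 1 rose, near the shares of all tested genes (13.9% and 13.1%), and 6 did not pass (median −0.19). The gene that fell does not act on pentoses in the main: the symbol Pgm2 in the deposited table (ENSMUSG00000025791, chromosome 4) belongs to the gene now named Pgm1, the phosphoglucomutase that interconverts glucose 1-phosphate and glucose 6-phosphate. It fell to 36.6 ± 3.18 FPKM in C/D, against 55.8 ± 7.06 FPKM in Gel/S (log2 fold change −0.56, edgeR adjusted p = 0.00329). Without it the list held 0 fallen genes of 7 (median −0.17). The phosphopentomutase, which interconverts ribose 1-phosphate and ribose 5-phosphate, is listed there as Pgm1 (ENSMUSG00000029171, chromosome 5), was outside the list, and did not pass (log2 fold change −0.06, edgeR adjusted p = 0.706). Shpk, the sedoheptulose kinase, rose to 2.40 ± 0.253 FPKM in C/D, against 1.73 ± 0.0902 FPKM in Gel/S (log2 fold change 0.51, edgeR adjusted p = 0.0423), a call lost in each of the 6 fits without 1 library (highest adjusted p = 0.121). The synthetases Prps1 (log2 fold change −0.22) and Prps2 (−0.17), which carry ribose 5-phosphate into nucleotides, did not pass.

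Of 9 tested genes listed as other makers of NADPH and NADP, 7 fell (13.9% of all genes did), 0 rose (13.1%) and 2 did not pass (median −0.53). The folate enzymes Mthfd1l (log2 fold change −0.71), Mthfd1 (−0.53) and Aldh1l1 (−0.87) fell, as did Me2 (−0.69), the mitochondrial malic enzyme that works mainly with NAD. Mthfd1l is a synthetase that makes no NADPH itself, so the count and the median of this list take in more than NADPH makers. Nadk, the cytosolic kinase that makes NADP from NAD, was picked after its value was seen. It fell to 55.8 ± 2.29 FPKM in C/D, against 81.4 ± 4.80 FPKM in Gel/S (log2 fold change −0.50, SE 0.0852, edgeR adjusted p = 0.00194). Idh2, the mitochondrial counterpart of Idh1, had a log2 fold change of −0.18 and did not pass (edgeR adjusted p = 0.102).

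NADPH users in fatty acid and sterol synthesis held 8 fallen genes of 10 (13.9% of all genes fell), 0 risen (13.1%) and 2 that did not pass (median −0.85), with Cyp51 (−1.26), Fasn (−0.95) and Sqle (−0.87) among the fallen. Users in redox defence and oxidant production were split. Of 8 tested, 3 fell (13.9% of all genes did), 2 rose (13.1%) and 3 did not pass (median −0.13). Cybb, the catalytic subunit of the phagocyte oxidase, fell to 284 ± 14.7 FPKM in C/D, against 476 ± 104 FPKM in Gel/S (log2 fold change −0.70, edgeR adjusted p = 0.00428). Gsr, glutathione reductase, fell by 0.56 and Txnrd1, thioredoxin reductase, by 0.63 on the log2 scale. Blvrb, a biliverdin and flavin reductase, rose with a log2 fold change of 0.67 (edgeR adjusted p = 0.00313), and Cbr1, a carbonyl reductase named after its value was seen, rose with 0.55. No test of a list was made.

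**Figure D4:**
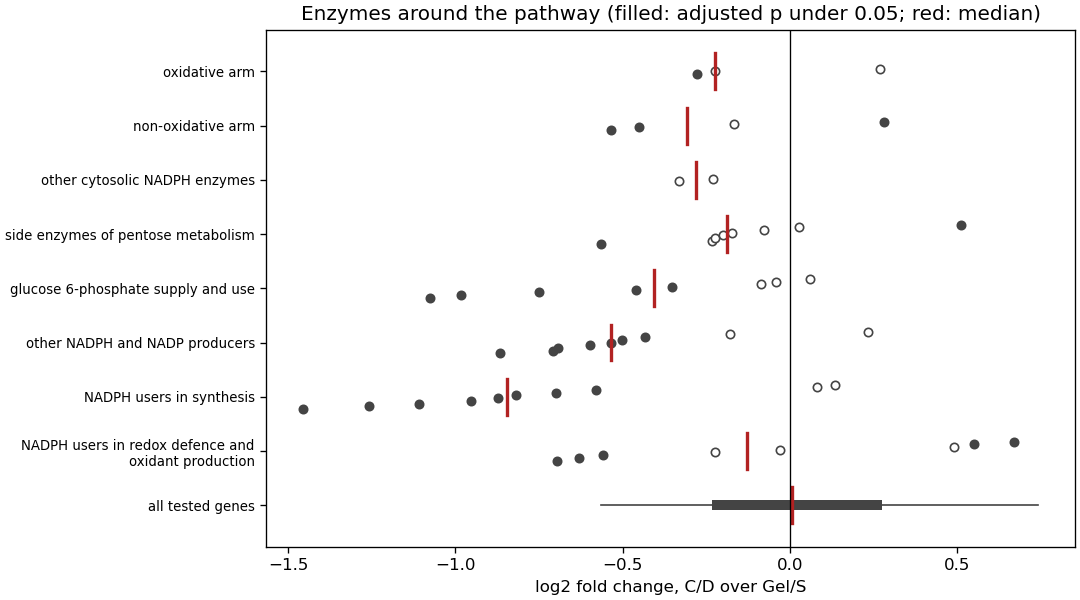
Log2 fold changes (C/D over Gel/S) of the 9 enzymes by role and of the tested genes of 5 lists around the pathway, 1 point per gene, filled where the edgeR adjusted p is under 0.05, with the median in red; the filled point below 0 among the side enzymes is the phosphoglucomutase listed as Pgm2. The bottom row gives all 11708 tested genes as median, middle range from the 25th to the 75th percentile (thick line, −0.22 to 0.26) and range from the lower to the upper 5% limit (thin line, −0.56 to 0.74).

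The genes whose log2 CPM (counts scaled to library size) ran most like that of Rpia over the 6 libraries were Dnaaf5 (Pearson r = 0.999), Sinhcaf (0.993) and Chrm4 (0.987). For Taldo1 they were Pecr (0.999), Srp19 (0.997) and Ifi203 (0.996). With 6 libraries in 2 groups a high r was not particular to the named genes. Of 10048 genes, 70 reached an r over 0.95 with Rpia and 391 with Taldo1, and all share the same libraries.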

How the data were processed

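Libraries of 6 samples of RAW264.7 cells were made with the SMARTER mRNA-Seq kit, per the labels' protocols, and titles gave each its group and replicate. The deposited counts are raw counts per gene by the authors, per the file headers, without normalization, and FPKM values are also the authors', scaled to a library total close to but not equal to the sum of counts. The log2 fold changes and adjusted p-values of the authors' deposited table have Gel/S on top, so the sign is reversed here to put C/D on top. Gene length (another value of the deposited table, in bases) is the authors'. Build GRCm38 (mm10) is per the submitters' processing notes, while no source used here names the aligner, the counter or the read strand. Entries of 100 repeated symbols were summed, 27 symbols turned into dates were restored, and 0 entries lacked a gene ID.

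Genes with a mean FPKM of at least 1 (11708) were tested with the edgeR 4.0.16 quasi-likelihood test (R 4.3.3, TMM) at a Benjamini-Hochberg adjusted p of 0.05. Each SE was obtained by dividing the size of a log2 change by the root of its F statistic. The pipeline was tested on simulated data. Alternatives were RLE factors, DESeq2 1.42.0, no filter, limma 3.58.1 on log2(FPKM + 1), log2(FPKM + 0.1) and log2(TPM + 1), a replicate block, and each library left out. Leaving out mitochondrial genes and using principal transcript lengths were chosen after seeing the data. Named genes are the 9 members, up to 4 called genes per list by smallest adjusted p, and the 3 genes most correlated with Rpia and with Taldo1. Gpi1, Hk3, Prps1, Prps2, the gene listed as Pgm1, Idh2, Nadk, Cbr1 and the barely counted relatives were named outside this rule, after their values were seen. The values of 1 gene the rule takes are not reported here. Members and lists were chosen with earlier results of these data known.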

Additional observations from a re-analysis of the deposited data

How the results depend on the processing

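The direction of all 9 enzymes held in all 14 alternative fits, while calls other than that of Rpia depended on the setting. Counts of fallen enzymes were 3 in the edgeR fit, 5 with no filter on low values (Idh1 and Me1 added) and 1 with the replicate block, and 1 to 4 with a library left out. With no filter 23858 genes were tested, of which 1740 rose and 2237 fell, and the median change over all of them was 0.07 (log2). Each of the 9 enzymes had a lower log2 fold change there than with the filter, as G6pdx with −0.27 against −0.22. The limma fits lost Rpe (adjusted p = 0.0802 to 0.0824) and called G6pdx, and on TPM also Tkt (adjusted p = 0.0319). The count of risen enzymes was 1, and it was 0 with no filter, with limma on log2(FPKM + 1), log2(FPKM + 0.1) or log2(TPM + 1) and with the replicate block, and 0 to 2 with a library left out. Without C/D 1, C/D 2, C/D 3 or Gel/S 3 only Rpia was called. Over all tested genes, 1532 rose and 1631 fell, with 1020, 1008 and 633 risen by limma on those 3 scales, 887 to 1989 risen and 876 to 2089 fallen with a library left out. The share of higher calls moved with the scale, since 1471, 1492 and 1510 genes fell in these limma fits. With TPM the median change over all genes was −0.12 (log2), and Taldo1 was at 0.15. The cause was not tested.

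Deviations of same-numbered libraries from their group means showed little correlation (−0.0568, −0.0589 and 0.0454). With 3 libraries a group these values cannot show how the cultures were run, and the labels name no pairing. The replicate block, with 1242 genes risen and 1302 fallen, pairs samples by number, and whether they were paired is not known.

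The group difference between the arms, 0.12 as a mean of logs, was −4.09 percentage points as the oxidative share of summed FPKM and −2.53 percentage points per principal transcript length. By construction the share follows Taldo1, the most abundant gene. The mean of logs gave 0.0501 to 0.197 with a library left out. Of the 18 genes the naming rule takes from the lists, all kept their direction in the 14 fits, and calls were lost for Shpk alone, in 12 of them. Rpia, Rpe and Me1 rest on 184 to 731 counts a library, which limits their precision.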

Other observations

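Several relatives of these enzymes were barely or not counted in these macrophages. G6pd2, an autosomal relative of G6pdx, and Tktl2, a relative of Tkt, had 0 counts in all 6 libraries, which allows up to 3 counts in each, or 0.182 to 0.234 CPM. Tktl1, the other transketolase-like gene, had 3 to 12 counts a library. The mitochondrial malic enzyme gene Me3 had 1 count in all, and Nnt, the mitochondrial transhydrogenase that makes NADPH, had 2 to 10 counts a library. Nqo1, an NADPH-using quinone reductase that is a common readout of NRF2, had 0 to 3 counts a library. Counting error alone is covered by these limits.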
